A study of Mus musculus with 16 samples.

Results

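Transforming growth factor beta (TGF-beta) genes were followed in hippocampal neurons that had been given astrocyte medium with human apoE2, apoE3 or apoE4 lipoproteins or without apoE. The 9 genes, chosen by symbol, were the ligands Tgfb1, Tgfb2 and Tgfb3, the receptors Tgfbr1 and Tgfbr2, the signal transducer Smad3, the inhibitor Smad7 and the response genes Id1 and Id3. They were chosen with earlier results of these data known. They are 9 of the 48397 gene symbols counted in each library, and all 9 passed the filter on low counts that left 17038 genes to test. RNA was sequenced from 16 cultures of primary hippocampal neurons, 4 in each of 4 groups. The neurons came from CD1 mouse pups of postnatal day 0 to 2, were labelled wild type, received AraC, which stops cells that divide, and were taken at 17 days in vitro (DIV). At 10 and 13 DIV all cultures received 10-fold concentrated medium that immortalized astrocytes had conditioned. Astrocytes homozygous for human APOE ε2, ε3 or ε4 supplied the medium of the apoE2, apoE3 and apoE4 neurons, and Apoe-/- astrocytes that of the control neurons. Each isoform came from astrocytes of its own genotype, so the isoform and anything else that differed between those astrocytes cannot be told apart.

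TGF-beta ligands are secreted in a latent form, and once released they bring the type II receptor Tgfbr2 and the type I kinase Tgfbr1 together. The kinase phosphorylates Smad2 and Smad3, which enter the nucleus with Smad4 and bind the short motif GTCT, and the induced Smad7 acts back on the receptor as a brake. Id1 and Id3 encode inhibitors of basic helix-loop-helix transcription factors that respond foremost to the related bone morphogenetic proteins (BMPs) through Smad1 and Smad5, and in some cells to TGF-beta. In the brain, neurons and glia both make parts of this pathway, Tgfb2 and Tgfb3 are the usual neuronal ligands, and Id3 is high in astrocytes and in vessel cells.

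Among the 9 genes Id3 and Id1 rose most with apoE3 and apoE4, and Smad3 fell with apoE2. None of these differences passed an adjusted p of 0.05 in the fit on groups alone, and they did so when the replicate number, which libraries of the 4 groups share, was added to the fit as a block. The spread between replicate numbers was larger than the spread between groups for each of the 9 genes. The plot of levels by library shows both.

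**Figure D1:**
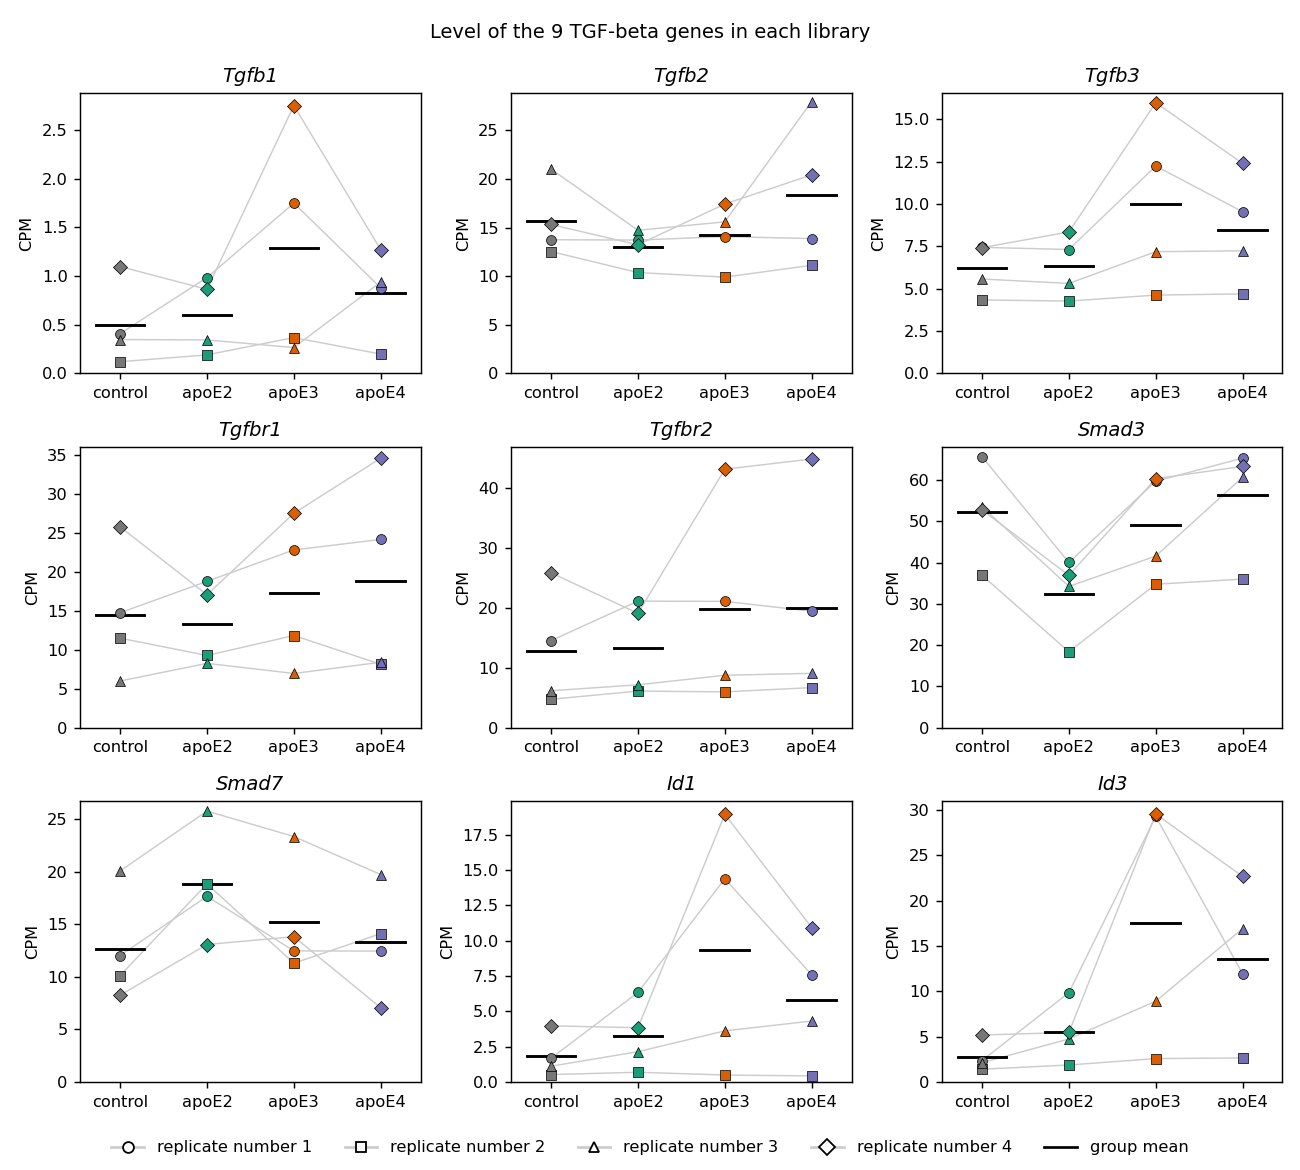
CPM (counts scaled to library size, linear axes from 0) of the 9 TGF-beta genes in each of the 16 libraries, by group, with 1 marker shape per replicate number, grey lines joining libraries that share a number and black bars for the group means. Id3 stood above the control library of its number in every apoE library, and Smad3 stood below it in all 4 apoE2 libraries.

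Per library 14087723 to 34248172 reads were counted on genes, with a median of 22221832, and 38.4 to 73.7% of a library's reads fell on no single gene. The depth gave Tgfb1 only 3 to 42 reads in a library and Id1 12 to 289, while Smad3 had 482 to 1536. Neuronal markers (8 genes, among them Rbfox3, Map2 and Snap25) summed to 2876 to 7272 CPM, and 8 astrocyte markers, among them Gfap, Aqp4 and Aldoc, summed to 1293 to 6389 CPM, so the cultures labelled as neurons also held astrocyte RNA in each library.

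Compared per exon length, as RPKM (reads scaled for exon length and library size), Smad3 had the highest level of the 9 in the control neurons, at 9.43 ± 2.13 RPKM (SD, n = 4), and Tgfb1 the lowest, at 0.0980 ± 0.0836 RPKM. Neither overlapped its neighbour in that order. Between them stood Smad7 at 2.79 RPKM, Tgfb2 at 2.70 RPKM, Tgfbr1 at 2.22 RPKM, Tgfb3 at 1.83 RPKM, Id1 and Tgfbr2 at 1.57 RPKM each and Id3 at 1.55 RPKM, and each of these overlapped the next. The order differed with apoE3, where Id3 stood first at 9.82 ± 7.77 RPKM, Smad3 next at 8.86 ± 2.33 RPKM and Id1 at 8.07 ± 7.53 RPKM, with ranges that overlapped. With apoE4 Smad3 at 10.2 ± 2.47 RPKM came before Id3 at 7.56 ± 4.74 RPKM, and with apoE2 Smad3 at 5.85 ± 1.74 RPKM came before Smad7 at 4.17 ± 1.16 RPKM, and again both ranges overlapped. Tgfb1 stayed last in all 4 groups, at up to 0.255 RPKM in the apoE3 neurons. The lengths are those of all annotated exons joined, from 1160 bases for Id1 to 8187 bases for Tgfbr2, so a short expressed isoform has its level understated.

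At an adjusted p under 0.05, edgeR called 0 of the 9 genes in each of the 3 comparisons with the control, where its calls made up 0% of the tested genes for apoE2, 0.00587% for apoE3 and 0.194% for apoE4. It also called 0 of the 9 between isoforms, where the share of all genes was 0% for apoE3 against apoE2, 0.252% for apoE4 against apoE2 and 0.153% for apoE4 against apoE3. At an unadjusted p under 0.05, 1 gene (Smad3) passed with apoE2, 2 (Id1 and Id3) with apoE3 and 1 (Id3) with apoE4, beside 2.78%, 6.34% and 3.33% of all genes. Between isoforms 2 genes (Smad3 and Id3) passed for apoE3 against apoE2, 1 (Smad3) for apoE4 against apoE2 and 0 for apoE4 against apoE3, beside 2.28%, 5.27% and 4.67% of all genes. At the study's criterion, a change of at least 2-fold with an unadjusted p under 0.05, 0, 2 and 1 of the 9 genes passed with apoE2, apoE3 and apoE4, beside 0.716%, 1.95% and 1.14% of all genes. DESeq2, a second count model, called 0 of the 9 in all 6 comparisons, beside 0.149%, 0.268% and 0.38% of all genes with apoE2, apoE3 and apoE4, and 0.0145%, 0.759% and 0.339% for apoE3 against apoE2, apoE4 against apoE2 and apoE4 against apoE3. The 3 comparisons with the control share the same 4 control libraries.

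With the replicate block, edgeR called Smad3, 1 of the 9 genes, with apoE2, where it fell, 3 with apoE3 (Tgfb3, Id1 and Id3, which rose) and 2 with apoE4 (Id1 and Id3, which rose) at an adjusted p under 0.05, where 1.72%, 11.8% and 3.34% of all genes were called. Between isoforms it called 1 gene (Smad3) for apoE3 against apoE2, 1 (Smad3) for apoE4 against apoE2 and 0 for apoE4 against apoE3, beside 1.37%, 4.45% and 1.8% of all genes. Without the libraries of number 1 the blocked calls were 0 with apoE2, 1 (Id3) with apoE3 and 1 (Id3) with apoE4. Without number 2 they were 1, 3 and 2, without number 3 they were 1, 3 and 0, and without number 4 they were 2, 3 and 0. The shares of all genes called with a number left out are not given here.

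**Figure D2:**
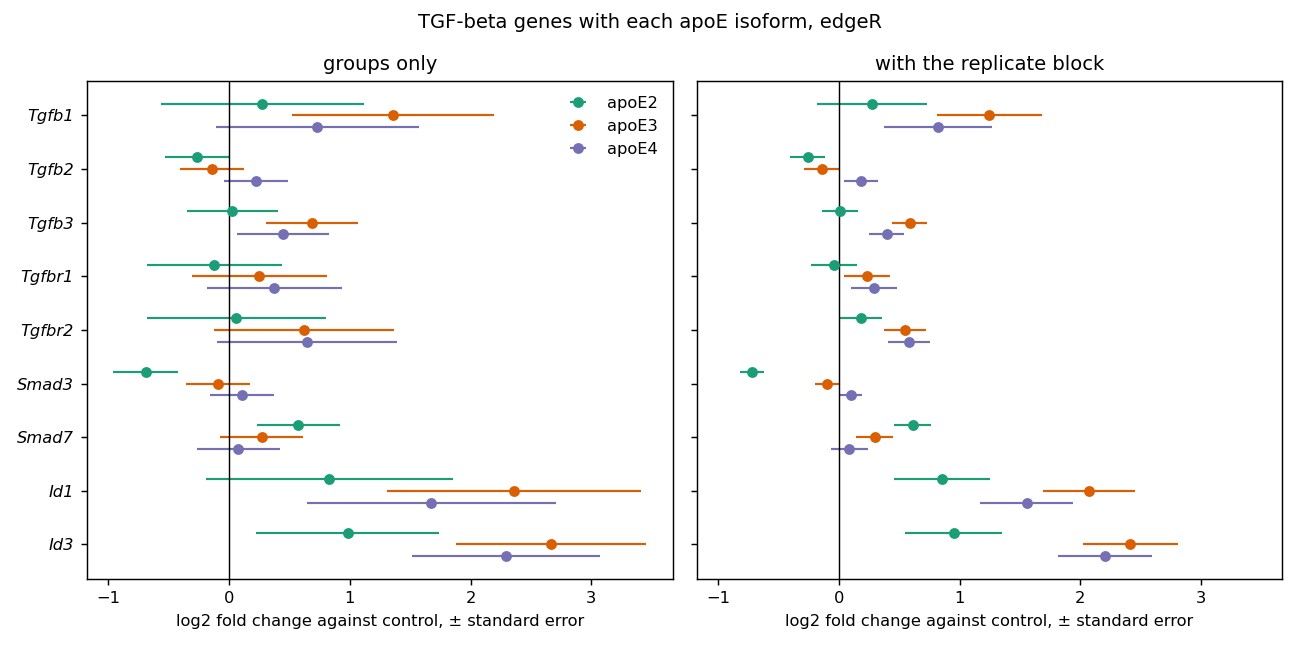
Log2 fold change against the control neurons, ± standard error, of the 9 TGF-beta genes with apoE2, apoE3 and apoE4, from edgeR on groups alone (left) and with the replicate block (right). Id3 reached 2.67 with apoE3 and Smad3 -0.69 with apoE2 on groups alone, and the block left the values near these (2.42 and -0.72) with smaller standard errors.

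Id3, on chr4:136143497-136145755 of mm10 in the GENCODE M21 annotation, was the gene of the 9 that rose most. In the 250 bases before its RefSeq start 2 stretches hold the 4-letter motif that Smad3 and Smad4 bind, and they are shown with the only such stretch before the Smad3 start because these genes carry the main differences. Each is 30 bases from RefSeq on GRCm38.p6, 5′ to 3′ on the gene's strand, with GTCT or its reverse complement AGAC in capitals. Those of Id3 lie at chr4:136143643-136143672 and chr4:136143741-136143770 on the plus strand, their motifs starting 166 and 68 bases before the first transcribed base of the RefSeq gene, and that of Smad3 at chr9:63758161-63758190 on the minus strand, its motif 183 bases before the RefSeq start. GENCODE M21 starts Id3 farther upstream, and all 250 bases of the Id3 window lie there in the first exon of a protein-coding Id3 transcript, ahead of its coding sequence, so both Id3 stretches are transcribed in that annotation. The Smad3 window overlaps no annotated Smad3 exon.
Id3, farther motif: tgtcctcggcgtcAGACcagcctaaggaag
Id3, nearer motif: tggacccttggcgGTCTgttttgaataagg
Smad3: ctgcgtgaaacgtAGACttgggagcgggcg
Of 32851 RefSeq promoters, 82.86% hold GTCT on either strand within 250 bases before the start, so most genes hold such a match. The longer GTCTAGAC was in 0.1674% of them and in 0 of the 7 windows read here for 6 of the 9 genes.

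Id3 stood at 2.36, 1.41, 2.13 and 5.18 CPM in control libraries 1 to 4 and at 9.85, 1.87, 4.74 and 5.46 CPM in the apoE2 libraries. It stood at 29.3, 2.58, 8.90 and 29.6 CPM with apoE3 and at 11.9, 2.65, 16.9 and 22.7 CPM with apoE4. Every apoE library was above the control library of its number, and yet the ranges of all 4 groups overlapped. The library of number 2 was the lowest in every group. Against the control the log2 fold change was 2.67 (SE 0.78) with apoE3 (edgeR unadjusted p = 0.00415, adjusted p = 0.573) and 2.29 (SE 0.78) with apoE4 (unadjusted p = 0.0101, adjusted p = 0.841). With the replicate block these values were 2.42 (SE 0.39, adjusted p = 0.00175) and 2.20 (SE 0.39, adjusted p = 0.00486). With apoE2 it was 0.98 (SE 0.76, adjusted p = 1), and the blocked adjusted p was 0.306. On groups alone the apoE2 value moved to 0.55 without apoE2 library 1 and to 1.47 without control library 4. The blocked call with apoE3 held with each number left out (adjusted p 0.00256 to 0.0276), while that with apoE4 was lost without number 3 (adjusted p = 0.0770) and without number 4 (adjusted p = 0.0506).

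Id1, which lies in a single exon block at chr2:152736251-152737410, followed Id3 closely. It stood at 1.68, 0.523, 1.12 and 3.98 CPM in control libraries 1 to 4, at 6.34, 0.687, 2.14 and 3.84 CPM with apoE2, at 14.4, 0.491, 3.61 and 18.9 CPM with apoE3 and at 7.58, 0.427, 4.31 and 10.9 CPM with apoE4. The apoE3 and apoE4 libraries were above the control library of their number in 3 of 4 pairs, and in number 2 the level was under 1 CPM in every group. The log2 fold change was 2.36 (SE 1.05) with apoE3 (edgeR unadjusted p = 0.0404, adjusted p = 0.777) and 1.68 (SE 1.03) with apoE4 (adjusted p = 1.00). Leaving out 1 library moved these values to 1.74 without apoE3 library 4 and 3.07 without control library 4 for apoE3, and to 1.16 without apoE4 library 4 and 2.39 without control library 4 for apoE4. With the block it was 2.07 (SE 0.38, adjusted p = 0.00351) and 1.56 (SE 0.38, adjusted p = 0.0370). With apoE2 it was 0.83 (SE 1.02), or 0.31 without apoE2 library 1 and 1.54 without control library 4, and the blocked adjusted p was 0.373. Without number 1 the blocked adjusted p was 0.0726 with apoE3, and with apoE4 the call was lost without number 1, 3 or 4 (adjusted p 0.267, 0.268 and 0.0773). Across the 16 libraries, which differ in depth and fall into 4 replicate numbers, Id1 and Id3 had a Pearson r of 0.935 in log2 CPM, and 0.950 after the mean of each number was taken off.

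Id3 exceeded its apoE2 level with apoE3 in 4 of 4 pairs, by 1.69 (SE 0.75) on the log2 scale (edgeR unadjusted p = 0.0415, adjusted p = 1.00, 0.0636 with the block). Between apoE4 and apoE3 its difference was -0.37, with a 95% interval from -1.94 to 1.19, so these libraries bound the Id3 difference between the 2 isoforms only loosely.

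Markers of other cells moved with Id1 and Id3. The 8 astrocyte markers summed to 1400 to 3045 CPM in the control, 1293 to 3069 with apoE2, 1681 to 6389 with apoE3 and 1554 to 5187 with apoE4. Of the 7 that were tested, 0 were called on groups alone. With the block 6 rose with apoE3, 3 with apoE4 and 0 with apoE2, beside 11.8%, 3.34% and 1.72% of all genes called. No marker was at 0 in all libraries, and Gjb6, the one left untested, ranged from 0 to 1.18 CPM. In number 2, where Id1 stayed under 1 CPM, the summed astrocyte markers were the lowest of any number, at 1293 to 1681 CPM. Over the 16 libraries the log2 level of Id1 and the log2 summed astrocyte markers had an r of 0.951 (0.918 within numbers), and that of Id3 0.927 (0.942). The 8 fibroblast and mural markers summed to 27.3 to 239 CPM in the control, 27.8 to 200 CPM with apoE2, 29.4 to 470 CPM with apoE3 and 28.8 to 402 CPM with apoE4. With the block 1 of these 8 was called higher with apoE3, 1 with apoE4 and 0 with apoE2, beside the same shares of all genes. The r of their sum was 0.856 with Id1 and 0.726 with Id3. The 8 oligodendrocyte lineage markers summed to 107 to 438 CPM in the control, 120 to 824 CPM with apoE2, 139 to 845 CPM with apoE3 and 110 to 676 CPM with apoE4. With the block 3 of these 8 were called higher with apoE3, 1 with apoE4 and 0 with apoE2, beside the same shares of all genes. The r of their sum was 0.923 with Id1 and 0.795 with Id3. The sums of the microglial, endothelial and dividing-cell markers had an r of 0.619, 0.824 and 0.611 with Id1 and of 0.530, 0.714 and 0.708 with Id3, and that of the neuronal markers -0.768 and -0.650. Of the 8 neuronal markers the block called 1 higher and 2 lower with apoE3, and 0 with apoE2 and apoE4. It called 0 of the 8 microglial markers, and 1 of 5 tested endothelial markers higher with apoE3 and with apoE4. The part of these cells in the rise of Id1 and Id3 was not tested, and in these bulk libraries a change in the number of cells of a type and a change in RNA per cell cannot be told apart. The study also counted GFAP-labelled cells in such cultures, and those counts were not used here.

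**Figure D3:**
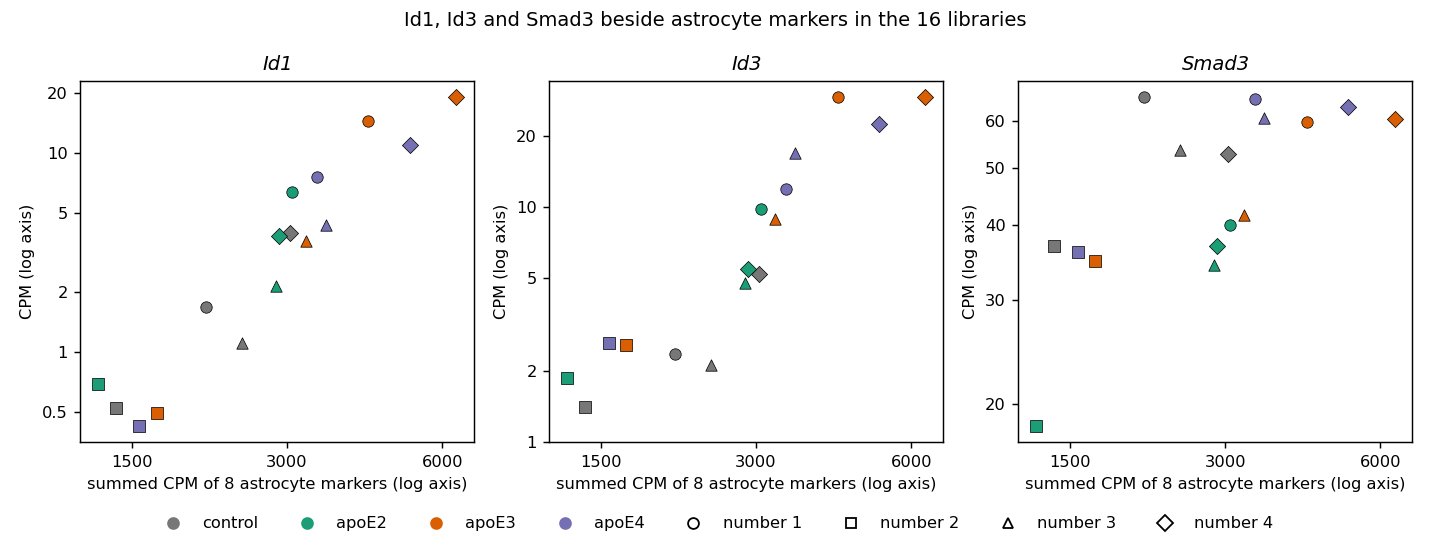
CPM of Id1, Id3 and Smad3 against the summed CPM of 8 astrocyte markers in the 16 libraries, all on log axes, with colour for the group and shape for the replicate number. Id1 and Id3 rise with the markers, with the number 2 libraries at the low end, while in the Smad3 panel the apoE2 libraries sit below others with like marker sums.

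Smad3, on chr9:63646767-63757994, is the transducer that carries the TGF-beta signal to DNA. It stood at 65.7, 36.9, 53.6 and 52.8 CPM in control libraries 1 to 4 and at 40.1, 18.4, 34.2 and 36.9 CPM with apoE2. It stood at 59.7, 34.8, 41.6 and 60.4 CPM with apoE3 and at 65.3, 36.02, 60.7 and 63.3 CPM with apoE4. Each apoE2 library was the lowest of its number, although the apoE2 and control ranges overlapped through the low control library of number 2. The log2 fold change with apoE2 was -0.69 (SE 0.27, edgeR unadjusted p = 0.0212, adjusted p = 1), and with the block -0.72 (SE 0.10, adjusted p = 0.00257). The blocked call with apoE2 held without number 2, 3 or 4 (adjusted p 0.0247, 0.0296 and 0.00184) and was lost without number 1 (adjusted p = 0.0623). With apoE3 the change was -0.09 (95% interval -0.66 to 0.48) and with apoE4 0.11 (95% interval -0.46 to 0.68).

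Between isoforms Smad3 was higher with apoE4 than with apoE2 by 0.80 (SE 0.27, edgeR unadjusted p = 0.00955, adjusted p = 0.501) and higher with apoE3 than with apoE2 by 0.60 (SE 0.27, unadjusted p = 0.0408, adjusted p = 1.00), each in 4 of 4 pairs. With the block the differences were 0.82 (SE 0.10, adjusted p = 0.000222) and 0.62 (SE 0.10, adjusted p = 0.00776). The first kept its blocked call with each number left out, at an adjusted p of 0.00122 to 0.00679, and the second lost it without number 1 (adjusted p = 0.0714) and without number 2 (adjusted p = 0.0739). Smad3 had an r of 0.695 with the summed astrocyte markers over the 16 libraries and 0.357 within numbers.

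Smad7, the inhibitory Smad, stood at 12.03, 10.1, 20.1 and 8.27 CPM in the control libraries and at 17.7, 18.9, 25.8 and 13.1 CPM with apoE2. It stood at 12.5, 11.3, 23.4 and 13.8 CPM with apoE3 and at 12.5, 14.1, 19.7 and 7.06 CPM with apoE4. The apoE2 libraries were higher than the control in 4 of 4 pairs, with overlapping ranges. The log2 fold change with apoE2 was 0.58 (SE 0.34, adjusted p = 1), and 0.61 (SE 0.15) with the block, where the adjusted p of 0.0520 just missed the threshold. On groups alone this change moved to 0.37 without apoE2 library 3 and to 0.89 without control library 3. With apoE3 it was 0.27 (SE 0.34) and with apoE4 0.08 (SE 0.34). After the mean of each replicate number was taken off, Smad7 and Smad3 had an r of -0.735 over the 16 libraries, against -0.350 before.

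The ligands differed among themselves. Tgfb3, on chr12:86056745-86079041, stood at 7.45, 4.34, 5.58 and 7.43 CPM in the control libraries, at 7.32, 4.28, 5.32 and 8.36 CPM with apoE2, at 12.3, 4.63, 7.19 and 15.99 CPM with apoE3 and at 9.55, 4.70, 7.24 and 12.4 CPM with apoE4. Every apoE3 and apoE4 library was above the control library of its number, by little in number 2. The log2 fold change was 0.69 (SE 0.38, adjusted p = 0.807) with apoE3 and 0.45 (SE 0.38, adjusted p = 1.00) with apoE4. Leaving out 1 library gave 0.36 (without apoE3 library 4) to 0.93 (without apoE3 library 2) with apoE3, and 0.20 (without apoE4 library 4) to 0.65 (without apoE4 library 2) with apoE4. With the block the apoE3 value was 0.59 (SE 0.15, adjusted p = 0.0182), and the call was lost without number 1, 3 or 4 (adjusted p 0.155, 0.0709 and 0.123). With apoE2 it was 0.03 (SE 0.38). Annotated genes on the other strand overlap 12.4% of the exon bases of Tgfb3, and since the sources used here do not state whether the counting used the strand, some of its reads may belong to them. Tgfb3 had an r of 0.923 with the summed astrocyte markers (0.912 within numbers) and of 0.944 with Id1.

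Tgfb2, on chr1:186622792-186705989, was the ligand with the highest level per length, at 2.65 RPKM over the 16 libraries against 2.29 for Tgfb3. It stood at 13.8, 12.5, 21.02 and 15.3 CPM in the control libraries, at 13.7, 10.4, 14.7 and 13.2 CPM with apoE2, at 14.1, 9.91, 15.6 and 17.4 CPM with apoE3 and at 13.9, 11.1, 27.98 and 20.4 CPM with apoE4. All 4 groups overlapped. Its log2 fold changes were the smallest of the 3 ligands with apoE3 and apoE4, at -0.14 (SE 0.26) and 0.23 (SE 0.26), and with apoE2 it was -0.27 (SE 0.26). The apoE2 value moved to -0.36 without control library 2 and to -0.09 without control library 3. Tgfb1, on chr7:25687002-25705077, stood at 0.409, 0.121, 0.349 and 1.10 CPM in the control libraries and at 1.75, 0.369, 0.266 and 2.75 CPM with apoE3, at 0.985, 0.191, 0.344 and 0.864 CPM with apoE2 and at 0.880, 0.199, 0.940 and 1.27 CPM with apoE4. These rest on 43, 62, 81 and 62 reads in all for the control, apoE2, apoE3 and apoE4 neurons, so the log2 fold change of 1.36 with apoE3 had an SE of 0.83 (adjusted p = 0.808, 0.0722 with the block). The blocked call was made without number 3 (log2 fold change 1.604, adjusted p = 0.0377), and without number 1, 2 or 4 the adjusted p was 0.368, 0.161 and 0.208. On groups alone leaving out 1 library moved the Tgfb1 change with apoE3 to 0.62 without apoE3 library 4 and 2.08 without control library 4, and that with apoE4 from 0.73 to 0.40 without control library 2 and to 1.45 without control library 4.

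Both receptors followed the replicate numbers. Tgfbr1, the type I kinase on chr4:47353222-47414931, stood at 14.8, 11.5, 5.997 and 25.8 CPM in the control libraries, at 18.8, 9.28, 8.26 and 17.1 CPM with apoE2, at 22.8, 11.8, 6.96 and 27.5 CPM with apoE3 and at 24.2, 8.14, 8.41 and 34.6 CPM with apoE4. Tgfbr2, the type II receptor on chr9:116084293-116175360, stood at 14.5, 4.74, 6.17 and 25.8 CPM in the control libraries, at 21.1, 6.11, 7.15 and 19.1 CPM with apoE2, at 21.1, 5.98, 8.75 and 43.1 CPM with apoE3 and at 19.4, 6.69, 9.07 and 44.8 CPM with apoE4. Numbers 1 and 4 were the high ones for both receptors in every group. The log2 fold change of Tgfbr1 was -0.12 (SE 0.56) with apoE2, 0.25 (SE 0.56) with apoE3 and 0.38 (SE 0.56) with apoE4. That of Tgfbr2 was 0.06 (SE 0.74), 0.62 (SE 0.74) and 0.64 (SE 0.74). With the block Tgfbr2 had 0.55 (SE 0.17) with apoE3 and 0.58 (SE 0.17) with apoE4, higher in 4 of 4 pairs each, and the adjusted p of 0.0522 and 0.0834 missed the threshold. On groups alone 1 library decided the direction of the Tgfbr2 change, which was -0.11 without apoE3 library 4 and 1.22 without control library 4 for apoE3, and -0.13 without apoE4 library 4 and 1.24 without control library 4 for apoE4. The Tgfbr1 change also turned, to -0.07 without apoE3 library 4 for apoE3, to -0.11 without apoE4 library 4 for apoE4 and to 0.31 without control library 4 for apoE2. Tgfbr2 had an r of 0.987 with the summed fibroblast and mural markers (0.902 within numbers), the highest of any of the 9 genes with that list.

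Replicate number held 90.4% of the variance of log2 CPM of Tgfbr2, 87.3% of that of Tgfbr1, 74.7% of Id1, 73.0% of Tgfb3 and 70.1% of Tgfb1, against a median of 56.1% over all tested genes. It held 64.3% for Smad7 and 63.4% for Tgfb2. For Smad3 and Id3 it held 51.2% and 45.9%, both below that median. The groups held 43.7% for Smad3 and 41.8% for Id3, 22.6% for Smad7 and 3.22% for Tgfbr1, against a median of 14.4% over all tested genes. Smad3 and Id3 were thus the members with the largest share between groups, and both receptors those with the smallest. The summed neuronal markers also differed by number, at 6233 to 7272 CPM in numbers 2 and 3 and 2876 to 4987 CPM in numbers 1 and 4, and their r with Tgfbr2 was -0.949.

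The genes whose log2 CPM followed the most abundant ligand, receptor and response gene per length most closely over the 16 libraries were found among all tested genes. They were Trib1 (Pearson r 0.909), Tiparp (0.905) and Rasa2 (0.893) for Tgfb2, Maf (0.976), Cdc42ep4 (0.974) and Rxra (0.974) for Tgfbr1, and Dhrs1 (0.966), Slc5a3 (0.949) and BC067074 (0.949) for Id3. These are descriptions over libraries that share 4 replicate numbers.

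The wider pathway was read from 109 other genes of the TGF-beta superfamily, of which 97 were tested. The list was chosen with earlier results of these data known, so its shares beside those of all genes are description only. On groups alone edgeR called 0 of them in each of the 6 comparisons, and 8, 11 and 3 had an unadjusted p under 0.05 with apoE2, apoE3 and apoE4. These are 8.25%, 11.3% and 3.09% of the list, beside 2.78%, 6.34% and 3.33% of all genes, so the count with apoE4 was near that of all genes. With the replicate block, 13 passed with apoE2 (11 of them upward), 39 with apoE3 (35 upward) and 9 with apoE4 (9 upward), which is 13.4%, 40.2% and 9.28% of the list beside 1.72%, 11.8% and 3.34% of all genes. The median log2 fold change over the list, on groups alone, was 0.17, 0.48 and 0.28, beside 0.01, 0.02 and 0.00 over all tested genes. Over the 9 genes it was 0.06, 0.62 and 0.45. The blocked counts moved with the libraries used, to 2, 8 and 3 without number 1, to 7, 39 and 5 without number 2, to 3, 23 and 4 without number 3 and to 24, 30 and 12 without number 4. The shares of all genes called in those fits are not given here. A move of the list thus cannot be told from a move of all genes. The astrocyte list, described above, had medians of 0.27, 0.84 and 0.75 in the same comparisons, and the fibroblast and mural list 0.24, 0.92 and 0.77. The latter shares 5 of its 8 markers with the pathway list (Col1a1, Col1a2, Acta2, Tagln and Dcn). The part of either cell type in these counts was not tested.

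**Figure D4:**
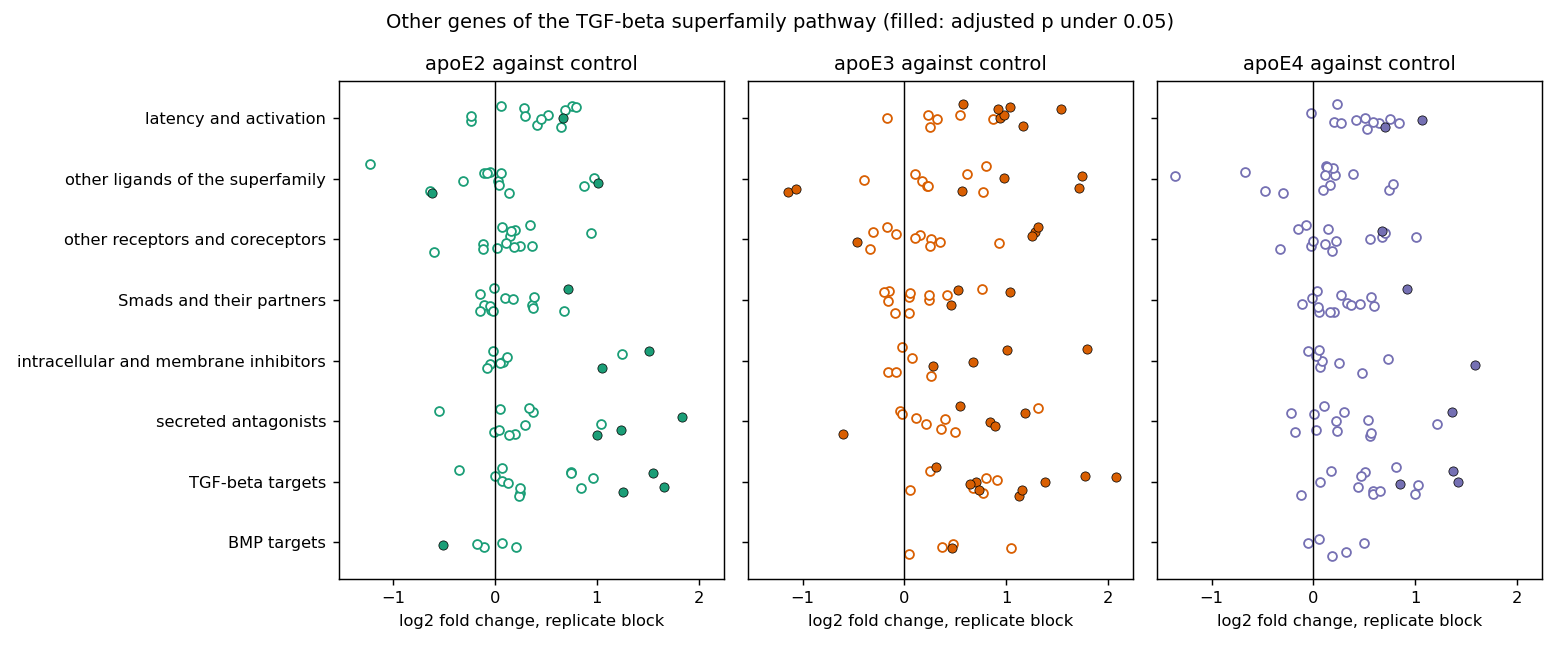
Log2 fold change against the control neurons, with the replicate block, of the 97 tested genes of the wider TGF-beta superfamily pathway, by role, for apoE2, apoE3 and apoE4. Filled points had an adjusted p under 0.05 (13, 39 and 9 genes), and most of them lie to the right of 0.

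Response genes of TGF-beta were the group called most often with apoE3. Of 15 tested, with the block 3 rose with apoE2, 9 with apoE3 and 3 with apoE4, and none fell, beside 1.72%, 11.8% and 3.34% of all genes called in either direction. On groups alone edgeR called 0 of the 15. Of the 15, 4 (Col1a1, Col1a2, Acta2 and Tagln) are also in the fibroblast and mural marker list, and of these only Col1a2 was called against the control, higher with apoE3 by 0.71 (adjusted p = 0.0312) and with apoE4 by 0.85 (adjusted p = 0.0273) under the block. Timp1, an inhibitor of matrix metalloproteinases, stood at 6.09, 1.41, 8.37 and 19.1 CPM in the control libraries and at 44.9, 6.51, 24.4 and 73.9 CPM with apoE3. It was higher than the control in 4 of 4 pairs with each isoform, and the blocked log2 fold change was 1.66 (SE 0.23, adjusted p = 0.00374) with apoE2, 2.08 (SE 0.23, adjusted p = 0.000151) with apoE3 and 1.37 (SE 0.23, adjusted p = 0.00380) with apoE4. Fn1, which encodes the matrix protein fibronectin, had 1.26 (adjusted p = 0.0108), 1.38 (adjusted p = 0.00146) and 1.42 (adjusted p = 0.00169) with apoE2, apoE3 and apoE4. Ctgf, a matricellular protein gene that the Hippo pathway also drives, had 1.55 (adjusted p = 0.0120) with apoE2, 1.78 (adjusted p = 0.00136) with apoE3 and 1.00 (adjusted p = 0.0650) with apoE4. Other-strand genes overlap 23.2% of the exon bases of Ctgf.

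Genes that store and release the latent ligand came next with apoE3. They had 1 of 13 tested higher with apoE2, 7 with apoE3 and 2 with apoE4 under the block and edgeR called 0 on groups alone, where the blocked share of all genes called was 1.72%, 11.8% and 3.34%. Itgav, the integrin alpha chain that binds latent TGF-beta, had group means of 77.4 ± 29.7 CPM (SD, n = 4) in the control, 124 ± 51.8 CPM with apoE2, 161 ± 87.9 CPM with apoE3 and 130.3 ± 58.6 CPM with apoE4. Its blocked log2 fold changes were 0.67 (SE 0.13, adjusted p = 0.0208), 0.98 (SE 0.13, adjusted p = 0.000584) and 0.70 (SE 0.13, adjusted p = 0.00771). Thbs2, a thrombospondin, rose with apoE3 by 1.17 (SE 0.14, adjusted p = 0.000301). Ltbp1, a latent TGF-beta binding protein, rose with apoE3 by 1.54 (adjusted p = 0.00281) and with apoE4 by 1.07 (adjusted p = 0.0421).

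Of 9 intracellular and membrane inhibitors of the pathway that were tested, the block called 2 higher with apoE2, 4 with apoE3 and 1 with apoE4, and none lower, beside 1.72%, 11.8% and 3.34% of all genes in either direction, while on groups alone edgeR called 0 and DESeq2 called 1, Ldlrad4 with apoE2. Their median log2 fold change on groups alone was 0.07, 0.28 and 0.09. Ldlrad4, a membrane inhibitor of Smad2 and Smad3 activation, stood at 8.63, 14.3, 9.38 and 8.999 CPM in the control libraries and at 19.99, 22.9, 20.1 and 21.6 CPM with apoE2, so those groups did not overlap. With apoE3 it stood at 16.8, 15.3, 15.8 and 17.4 CPM, also without overlap with the control. With apoE4 it stood at 15.6, 17.3, 12.7 and 11.7 CPM, each library above the control library of its number. Its log2 fold change with apoE2 was 1.03 (SE 0.16, edgeR adjusted p = 0.133, DESeq2 adjusted p = 1.34e-05) on groups alone and 1.05 (SE 0.13, adjusted p = 0.00184) with the block, but 52.1% of its exon bases overlap genes on the other strand, so its count is uncertain. Pmepa1, a TGF-beta-induced inhibitor of the same Smads, stood at 24.7, 15.6, 28.2 and 39.9 CPM in the control libraries and at 106.6, 48.1, 66.7 and 85.2 CPM with apoE2, again without overlap, with a blocked log2 fold change of 1.51 (SE 0.23, adjusted p = 0.00456). With apoE3 it stood at 67.0, 19.5, 43.3 and 110.7 CPM and with apoE4 at 63.2, 30.7, 34.1 and 48.8 CPM. Each of these libraries was above the control library of its number. Smad6, the inhibitory Smad of the BMP branch, stood at 0.424 ± 0.3998 CPM in the control and 1.30 ± 1.13 CPM with apoE4. With apoE2 it stood at 1.006 ± 0.813 CPM and with apoE3 at 1.597 ± 1.673 CPM. Every apoE library was above the control library of its number. The blocked log2 fold change of Smad6 was 1.59 (SE 0.34, adjusted p = 0.0161) with apoE4. Its levels rest on 36 reads in all in the control, and on 102, 102 and 97 with apoE2, apoE3 and apoE4.

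Among secreted antagonists, 3 of 13 tested rose with apoE2 (Fst, Bgn and Sostdc1), 4 rose and 1 fell with apoE3, and a single one (Bgn, 1 of 13) rose with apoE4 under the block, beside 1.72%, 11.8% and 3.34% of all genes called. On groups alone edgeR called 0 of the 13. Sostdc1, a BMP antagonist, stood at 0.545, 0.402, 0.244 and 0.523 CPM in the control libraries and at 1.06, 1.64, 1.30 and 2.11 CPM with apoE2, without overlap, and its blocked log2 fold change was 1.84 (SE 0.34, adjusted p = 0.0136) with apoE2 and 0.11 (SE 0.40) with apoE3. Such levels, like those of Tgfb1, rest on few reads, and Sostdc1 was named for its small blocked p with apoE2. Bgn, which encodes the proteoglycan biglycan, had a blocked log2 fold change of 1.36 (SE 0.25, adjusted p = 0.00606) with apoE4.

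On the BMP side, Smad5, a transducer of BMP signals, stood at 39.2, 21.6, 33.0 and 47.5 CPM in the control libraries and at 83.1, 38.8, 55.1 and 93.9 CPM with apoE4. The apoE4 libraries were higher in 4 of 4 pairs, and the log2 fold change was 0.94 (SE 0.36, adjusted p = 1.00) on groups alone and 0.91 (SE 0.10, adjusted p = 0.000114) with the block. Rgma, a BMP coreceptor that also repels growing axons, rose with apoE3 by 1.26 (SE 0.17, adjusted p = 0.000532) and with apoE4 by 0.67 (SE 0.17, adjusted p = 0.0388) under the block. Of 14 other Smads and partners tested, the block called 1, 3 and 1 higher with apoE2, apoE3 and apoE4. Of 14 other receptors and coreceptors it called 0, 3 and 1 higher, and 1 lower with apoE3. Of 5 BMP response genes it called 1 lower with apoE2, 1 higher with apoE3 and 0 with apoE4. All genes had 1.72%, 11.8% and 3.34% called, and on groups alone edgeR called 0 in these lists. Other BMP and activin ligands went both ways, and of 14 tested the block put 1 up and 1 down in the apoE2 neurons, 4 up and 2 down in the apoE3 neurons and 0 in the apoE4 neurons, beside 1.72%, 11.8% and 3.34% of all genes called. On groups alone edgeR called 0 of the 14.

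Id2, another gene of the Id family and the highest of the 4 per exon length in the control neurons at 15.1 RPKM, moved in opposite directions with apoE2 and apoE3, and was singled out after its values were seen. It stood at 38.8, 29.9, 40.2 and 38.8 CPM in control libraries 1 to 4, at 23.7, 23.0, 30.6 and 26.1 CPM with apoE2, at 47.3, 47.4, 58.9 and 50.6 CPM with apoE3 and at 34.0, 29.7, 48.2 and 58.7 CPM with apoE4. Each apoE2 library was below and each apoE3 library above the control library of its number, and the apoE3 libraries overlapped neither the control nor the apoE2 libraries. Under the block the log2 fold change against the control was -0.52 (SE 0.12, adjusted p = 0.0445) with apoE2 and 0.47 (SE 0.12, adjusted p = 0.0202) with apoE3. The difference between apoE3 and apoE2 was 0.98 (SE 0.19, edgeR adjusted p = 0.932) on groups alone and 0.99 (SE 0.12, adjusted p = 0.00176) with the block. Id4, the remaining gene of the family, had log2 fold changes of -0.10, 0.62 and 0.75 with apoE2, apoE3 and apoE4 (SE 0.68 each) and was not called with or without the block.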

How the data were processed

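RNA of 16 cultures was sequenced as libraries depleted of ribosomal RNA. After alignment to mm10 by STAR, HTSeq gave the raw counts per gene that the authors deposited, and these were used as they are. The annotation counted and the strand setting are not given in the sources used here. The 5 summary totals of HTSeq entered neither the library sizes nor any test.

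Groups and replicate numbers came from the sample labels. The 9 genes, the list of 109 pathway genes and the 7 lists of 8 cell type markers were written from general knowledge, and the 9 genes and the lists were chosen with earlier results of these data known. Genes were compared in edgeR 4.0.16 (R 4.3.3) after TMM scaling and filterByExpr (minimum count 10, minimum total 15), from 1 coefficient per group over all 16 libraries, by the robust quasi-likelihood test with Benjamini-Hochberg adjustment over all 17038 tested genes. The robust option was chosen after values had been seen. CPM are TMM-scaled, RPKM use the joined exons of GENCODE M21, and correlations use log2 of CPM plus 0.1. The study states independent cultures.

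Libraries with the same replicate number deviated together from their group means. In number 1 the correlation lay between 0.362 and 0.552, in number 2 between 0.766 and 0.831, in number 3 between 0.620 and 0.671 and in number 4 between 0.681 and 0.790. Pairs of unlike number ranged from -0.736 to 0.569. Those of numbers 2, 3 and 4 lay above that range, so these numbers pair the libraries. Those of number 1 lay inside it, so the pairing of number 1 is not clear. The block uses all 4 numbers. The labels do not say what a number stands for. With the number as a block the common dispersion fell from 0.132 to 0.0178. A pair is 2 libraries of the same number, and the blocked value is given where it changes a call.

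All 9 genes are named with every library's value. Between isoforms, genes with an unadjusted p under 0.05 are given. Of the other pathway genes, the 6 with the smallest blocked p per comparison with the control are named, and others were named after their values were seen. DESeq2 1.42.0, other scaling, other filters, 2-group fits, the block and libraries left out were alternatives. The fit was tested on simulated data. Promoter sequences are RefSeq's on GRCm38.p6 and were read for 6 of the 9 genes.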

Additional observations from a re-analysis of the deposited data

Results flagged for a closer look

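Of 36 sets of 4 libraries tested (9 genes in 4 groups), 1 held a library far from the others. Smad3 stood at 36.02 CPM in apoE4 library 2, while the other apoE4 libraries had 60.7 to 65.3 CPM, and its gap to them was 0.842 of the whole range, above Dixon's 95% critical value for 4 values. Such a library is expected by chance in about 1 of 20 sets. The library of number 2 also had the lowest Smad3 level in the control, apoE2 and apoE3 neurons, at 36.9, 18.4 and 34.8 CPM.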

How the results depend on the processing

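Of 30 log2 fold changes of the 9 genes, 308 of 356 values under alternatives other than leaving out 1 library kept direction and call, 41 became called, all under a replicate block, and 7 reversed. On groups alone, other scaling, other filters, 2-group fits, the fit without the robust option and DESeq2 called 0 of the 9 genes. DESeq2 called 1 pathway gene each for apoE2 (Ldlrad4), apoE3 against apoE2 (Id2) and apoE4 against apoE2 (Acvr2b). The replicate block called 1, 3 and 2 of the 9 genes with apoE2, apoE3 and apoE4 and 1, 1 and 0 for apoE3 against apoE2, apoE4 against apoE2 and apoE4 against apoE3, and 13, 39, 9, 7, 12 and 4 pathway genes in that order. DESeq2 with the block called 2, 4, 2, 2, 3 and 0 of the 9 genes and 16, 41, 13, 10, 14 and 7 pathway genes. Its share of all genes is not given here. Among others DESeq2 with the block put Smad7 with apoE2 (0.60) and Tgfbr2 with apoE3 (0.53) past the threshold too.

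With the block and number 1 left out, the counts were 0, 1, 1, 0, 2 and 0 of the 9 genes and 2, 8, 3, 1, 9 and 0 pathway genes. Without number 2 they were 1, 3, 2, 0, 1 and 0 and 7, 39, 5, 1, 10 and 1, without number 3 they were 1, 3, 0, 1, 1 and 0 and 3, 23, 4, 0, 3 and 0, and without number 4 they were 2, 3, 0, 1, 1 and 0 and 24, 30, 12, 5, 6 and 7. These fits have fewer libraries, and the shares of all genes called in them are not given here. Leaving out 1 library on groups alone gave 0 of the 9 genes throughout and 0 to 1 pathway genes for apoE2 (1 without control library 2) and for apoE4 against apoE2 (1 without apoE4 library 2).

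Some changes reversed. Under DESeq2 with the block Tgfb3 with apoE2 was -0.0041. With the block, Tgfb1 with apoE2 was -0.072 without number 1. Without number 2, Smad7 with apoE4 was -0.077, Tgfb3 with apoE2 was -0.00061 and Tgfbr1 with apoE2 was 0.043, and without number 4 Tgfb3 with apoE2 was -0.046 and Tgfbr1 with apoE2 was 0.14. Leaving out 1 library gave, with apoE2, -0.053 to 1.00 for Tgfb1, -0.15 to 0.16 for Tgfb3, -0.38 to 0.31 for Tgfbr1 and -0.24 to 0.66 for Tgfbr2. With apoE3 it gave -0.23 to 0.043 for Smad3, -0.25 to 0.038 for Tgfb2, -0.013 to 0.59 for Smad7, -0.070 to 0.68 for Tgfbr1 and -0.11 to 1.22 for Tgfbr2. With apoE4 it gave -0.027 to 0.27 for Smad3, -0.17 to 0.40 for Smad7, -0.045 to 0.41 for Tgfb2, -0.11 to 0.81 for Tgfbr1 and -0.13 to 1.24 for Tgfbr2. The cause was not tested. Id3 stayed higher with apoE3 (1.97 to 3.15) and Smad3 lower with apoE2 (-0.82 to -0.51) throughout. Tgfb1 rests on 3 to 42 reads a library.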

Other observations

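Between isoforms, edgeR with the replicate block called 7 of the 97 pathway genes for apoE3 against apoE2, 12 for apoE4 against apoE2 and 4 for apoE4 against apoE3 at an adjusted p under 0.05, beside 1.37%, 4.45% and 1.8% of all genes. On groups alone it called 0 in each, and 7, 11 and 5 of the 97 passed at an unadjusted p of 0.05, beside 2.28%, 5.27% and 4.67% of all genes, so the count for apoE4 against apoE3 was near that of all genes. The calls of DESeq2 were 1, 1 and 0. The genes named here were chosen after their values were seen. Of the secreted antagonists, 2 were lower with apoE4 than with apoE2. Fst, which encodes the activin-binding follistatin, fell by 1.00 on the log2 scale with the block (edgeR adjusted p = 0.00827) and Sostdc1, a BMP antagonist, fell by 1.31 (adjusted p = 0.0313). Inhbb, an activin subunit gene, was higher with apoE3 than with apoE2 by 0.80 (adjusted p = 0.0160) and with apoE4 than with apoE2 by 0.75 (adjusted p = 0.00658).

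The collagen genes Col1a1 and Col1a2, response genes of TGF-beta that fibroblasts express strongly, were higher with apoE4 than with apoE2 by 1.38 (edgeR with the block, adjusted p = 0.00906) and 0.86 (adjusted p = 0.0218). Both are also in the fibroblast and mural marker list, whose sum ranged from 27.8 to 200.0 CPM with apoE2 and from 28.8 to 402 CPM with apoE4, and the part of those cells was not tested. Smad5 was higher with apoE4 than with apoE2 by 0.82 (adjusted p = 0.000244) and than with apoE3 by 0.46 (adjusted p = 0.0287).

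Dividing-cell markers were present although the cultures received AraC. The 8 markers summed to 10.3 to 24.2 CPM in the control, 25.2 to 33.7 CPM with apoE2, 33.6 to 46.7 CPM with apoE3 and 19.8 to 49.0 CPM with apoE4. With the block 1 of 8 was called higher with each isoform. Of all genes 1.72%, 11.8% and 3.34% were called with apoE2, apoE3 and apoE4, so the count with apoE3 was near that of all genes. Microglial markers summed to 13.98 to 80.0 CPM over all libraries, oligodendrocyte lineage markers to 107 to 845 CPM and endothelial markers to 2.42 to 10.3 CPM.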
